A study of Mus musculus with 6 samples.

Results

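The homeostatic astrocyte genes described here encode the channels, transporters, enzymes and connexins with which resting astrocytes serve the cortex. They are Aqp4, Slc1a2, Slc1a3, Glul, Kcnj10, Gja1, Gjb6, Aldh1l1, Aldoc and S100b, chosen by their known roles and matched by gene symbol. The choice was made with earlier results of these data known. All 10 were found once each among the 33000 genes of the count table, and all 10 passed the filter on low counts, which left 15341 genes for testing. TruSeq mRNA libraries, in which fragments along the whole transcript are sequenced, were available from the frontal cortex of 6 mice of the C57BL/6 strain, all 3 months old. The GFAP-IL6 group held 3 mice homozygous for a transgene in which the Gfap promoter drives the inflammatory cytokine IL6 in astrocytes, and the wild-type (WT) group held 3 mice without it. All libraries were made from bulk tissue, as a reference for the 3’Pool-seq protocol of the same study. In bulk tissue, fewer astrocytes and less RNA per astrocyte cannot be told apart.

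Astrocytes take up the glutamate released at synapses and convert it to glutamine, which neurons use to make transmitter again. They also remove potassium after neuronal firing, exchange water with the blood through endfeet on the vessel wall, and are joined into a network by gap junctions. In inflamed or injured brain, astrocytes become reactive, a state best known for a rise of the intermediate filament protein GFAP, and the fate of their homeostatic genes is one of the questions asked of such tissue.

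The comparison of GFAP-IL6 with WT asked whether these genes changed in a cortex where astrocytes produce IL6. None of the 10 passed an adjusted p of 0.05 in edgeR’s quasi-likelihood test, in which 439 of all 15341 genes passed, or 2.86%. Of all genes, 2.65% were called higher and 0.209% lower in GFAP-IL6. At an unadjusted p under 0.05, Aqp4 was higher and Aldh1l1 lower, which is 2 of 10 genes beside 20.5% of all genes. The groups did not overlap for the same pair of genes, with Aqp4 above and Aldh1l1 below, while among all genes 13.8% lay wholly above and 12.7% wholly below. Both counts are thus near the background. The median log2 fold change was -0.04 over the 10 genes and -0.0038 over all genes tested, and 4 of the 10 estimates were above 0. The count over all genes moved with single libraries, to 1061 without WT replicate 1, 282 without GFAP-IL6 replicate 2 and 187 without GFAP-IL6 replicate 3.

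**Figure D1:**
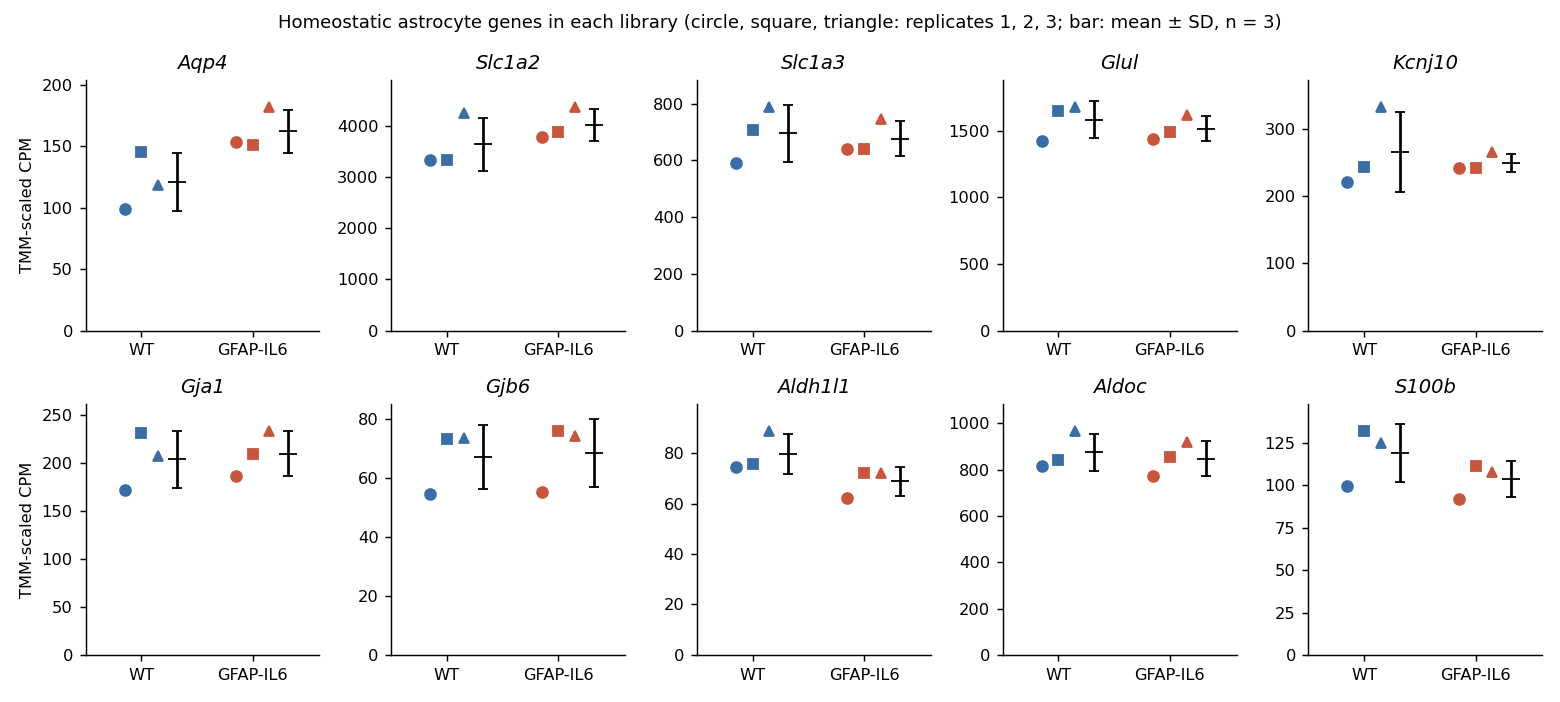
Expression of the 10 genes in each library in CPM after TMM scaling (linear axes from 0). Points are single mice, with circles, squares and triangles for replicates 1, 2 and 3 (numbers not taken as pairs), and bars are the mean ± SD (n = 3). The groups stand apart only for Aqp4 and Aldh1l1, and WT replicate 1 is the lowest WT library in all 10 panels.

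The labels were checked on the transgene’s product and on the astrocyte filament gene. Il6 had 0, 2 and 0 counts in WT replicates 1, 2 and 3, and 12, 10 and 24 counts in the GFAP-IL6 replicates, so no WT library rose above 3 counts. Gfap stood at 76.5, 123 and 84.2 CPM (counts scaled to a common library total, by TMM) in the WT replicates. In the GFAP-IL6 replicates it stood at 517, 646 and 870 CPM. Gfap rose by 2.84 ± 0.20 on the log2 scale (SE, n = 3 per group, edgeR adjusted p = 5.49e-06), with each GFAP-IL6 library far above each WT library. Whether a count came from the transgene or from an endogenous gene cannot be told apart. Total counts were between 11591066 and 16877001 in WT and between 7559524 and 11072008 in GFAP-IL6, and each GFAP-IL6 library was shallower than each WT library (exact two-sided permutation p = 0.1, the smallest possible). The 10 genes took between 0.682% and 0.852% of the counts in WT and between 0.748% and 0.869% in GFAP-IL6. Slc1a2 alone made up between 44.9% and 51.0% of those counts.

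**Figure D2:**
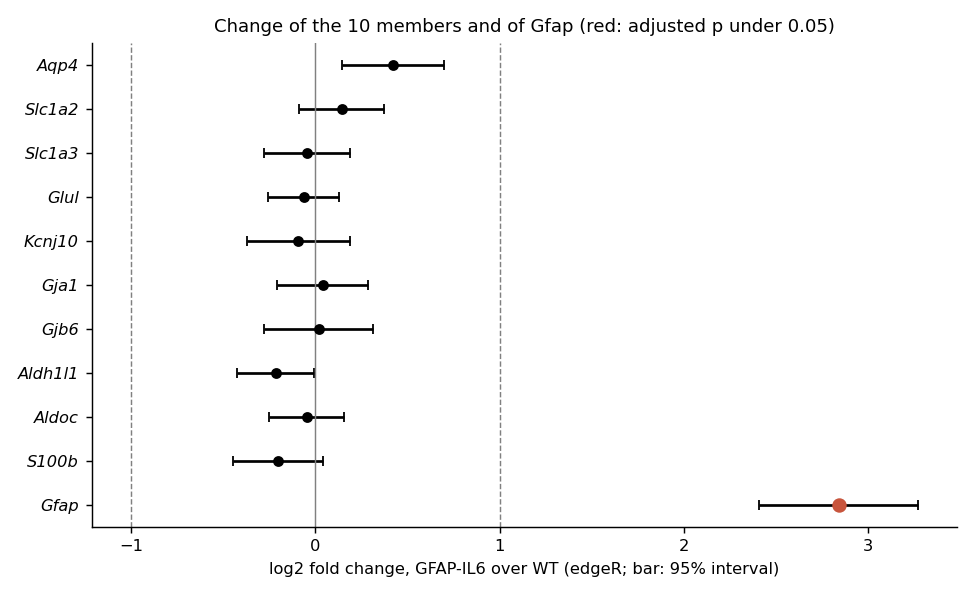
Log2 fold change of GFAP-IL6 over WT for each of the 10 genes and for Gfap, from edgeR, with bars for the 95% interval (n = 3 per group) and dashed lines at a change of 1 in either direction. All 10 intervals lie between the dashed lines, whereas Gfap lies at 2.84 (red, adjusted p under 0.05).

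Aqp4 encodes aquaporin-4, the water channel concentrated in astrocyte endfeet, and lies on the minus strand of chromosome 18 at 15389496 to 15410982 (GRCm38, as are all positions here). It showed the largest difference of the 10 genes. Its level was 98.5, 145 and 119 CPM in WT replicates 1, 2 and 3, and 153, 151 and 182 CPM in the GFAP-IL6 replicates. Each GFAP-IL6 library was above each WT library, by a small margin over WT replicate 2, and GFAP-IL6 replicate 3 was the highest. The means were 121 ± 23.6 CPM and 162 ± 17.4 CPM (SD, n = 3 each), and the log2 fold change was 0.42 ± 0.13 (SE), with a 95% interval from 0.14 to 0.70. The unadjusted p was 0.00602 and the adjusted p 0.106 (edgeR), so Aqp4 did not pass the threshold over all genes. The call was sensitive to the processing. Among other settings, Aqp4 passed with DESeq2 (adjusted p = 0.0389), without the filter on low counts (edgeR adjusted p = 0.00494) and without WT replicate 2 (edgeR adjusted p = 0.00273, log2 fold change 0.58). Leaving out the other libraries in turn gave estimates as low as 0.30.

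Endfoot channels such as Aqp4 are held at the vessel wall by the dystrophin-associated complex and its ligands in the basal lamina, and a list of 10 such genes was examined beside it. None of the 10 passed in either direction, and their median log2 fold change was 0.04. The smallest p belonged to Agrn, which encodes the basal lamina proteoglycan agrin, at 229 ± 39.0 CPM in WT and 278 ± 10.6 CPM in GFAP-IL6 (SD, n = 3, log2 fold change 0.28, edgeR adjusted p = 0.184). Dag1, which encodes the agrin receptor dystroglycan, followed with a log2 fold change of 0.15 (edgeR adjusted p = 0.335).

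Slc1a2 and Slc1a3 encode the glutamate transporters GLT-1 and GLAST, which clear glutamate from the extracellular space. Slc1a2 lies on the plus strand of chromosome 2 at 102658659 to 102790784 and was the most counted of the 10 genes. Its level was 3334, 3337 and 4242 CPM in the WT replicates and 3788, 3889 and 4376 CPM in the GFAP-IL6 replicates. WT replicate 3 lay inside the GFAP-IL6 range, while the other WT libraries lay below it. Slc1a2 differed by 0.14 ± 0.11 (SE) on the log2 scale, with a 95% interval from -0.09 to 0.37 (edgeR adjusted p = 0.464). It was 0.27 without WT replicate 3, and as low as 0.08 without GFAP-IL6 replicate 3. An exon of Gm13872 on the opposite strand covers 1.4% of the Slc1a2 exon bases, and whether counting used the strand is not given in the sources used here.

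Slc1a3, on the minus strand of chromosome 15 at 8634124 to 8710764, had 590, 708 and 789 CPM in the WT replicates and 638, 641 and 747 CPM in the GFAP-IL6 replicates. All GFAP-IL6 libraries lay within the WT range. Its log2 fold change was -0.04 ± 0.11 (SE), with a 95% interval from -0.28 to 0.19 (edgeR adjusted p = 0.852). Glul encodes glutamine synthetase, which turns glutamate and ammonia into glutamine, and lies on the plus strand of chromosome 1 at 153899944 to 153909723. Glul had 1427, 1646 and 1682 CPM in the WT replicates and 1435, 1492 and 1622 CPM in the GFAP-IL6 replicates. Again all GFAP-IL6 libraries lay within the WT range, and the interval of the log2 fold change ran from -0.26 to 0.13 (estimate -0.06 ± 0.09 SE, edgeR adjusted p = 0.714). Mir8114 on the same strand and Teddm2 on the opposite strand share 2.8% and 3.5% of the Glul exon bases.

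The balance of the transporters was read as the ratio of Slc1a2 to Slc1a3 in TPM (counts per length, scaled to a common total), which needs no scaling between libraries. The ratio was 2.06, 1.72 and 1.96 in the WT replicates and 2.16, 2.21 and 2.13 in the GFAP-IL6 replicates. Every GFAP-IL6 library was above every WT library, and the GFAP-IL6 mice were close together. The mean log2 ratio was 0.19 higher in GFAP-IL6, and the exact two-sided permutation test gave p = 0.1 (n = 3 per group), the smallest this design allows, or 0.15 adjusted over the 3 ratios examined. Without WT replicate 2 the difference was 0.11, and without other single libraries it was at most 0.24.

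Among 10 other genes of glutamate and glutamine handling, 1 was higher and 0 were lower at an adjusted p of 0.05, and the median log2 fold change was 0.00. The gene that rose was Slc38a5, which encodes the glutamine transporter SNAT5. Slc38a5 had 2.26, 1.07 and 1.38 CPM in the WT replicates and 11.4, 6.73 and 16.5 CPM in the GFAP-IL6 replicates, with no overlap between groups. The log2 fold change of Slc38a5 was 2.93 ± 0.33 (SE, n = 3 per group, edgeR adjusted p = 0.000283). The other 9 did not pass.

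Kcnj10 encodes Kir4.1, the inward rectifier potassium channel through which astrocytes take up potassium, and lies on the plus strand of chromosome 1 at 172341210 to 172374085. It had 220, 243 and 333 CPM in the WT replicates and 241, 241 and 265 CPM in the GFAP-IL6 replicates. WT replicate 3 was the highest library and the GFAP-IL6 libraries lay within the WT range, with an SD of 59.4 CPM in WT and 14.0 CPM in GFAP-IL6. For Kcnj10 the log2 fold change was -0.09 ± 0.13 (SE), with a 95% interval from -0.37 to 0.19 (edgeR adjusted p = 0.713). Without WT replicate 3 the estimate was 0.10. The 10 other genes of ion and potassium handling gave no call in either direction and a median of -0.02. Atp1b2, the glial beta subunit of the sodium pump, had the smallest p among them, at 402 ± 42.5 CPM in WT and 521 ± 51.1 CPM in GFAP-IL6 (SD, n = 3), with no overlap and a log2 fold change of 0.37 (edgeR adjusted p = 0.0680). Kcnk1, a leak potassium channel, had a log2 fold change of -0.20 (edgeR adjusted p = 0.265).

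Aqp4 and Kcnj10 share the endfoot membrane, so their TPM were also compared within each library. The ratio of Aqp4 to Kcnj10 was 0.477, 0.636 and 0.379 in the WT replicates and 0.677, 0.668 and 0.731 in the GFAP-IL6 replicates. The groups did not overlap, and the WT mice were spread more widely than the GFAP-IL6 mice. The mean log2 ratio was 0.51 higher in GFAP-IL6 (exact two-sided permutation p = 0.1, the smallest possible, n = 3 per group, adjusted p = 0.15 over 3 ratios). It was 0.33 without WT replicate 3 and 0.70 without WT replicate 2.

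Gja1 and Gjb6 encode connexin 43 and connexin 30, which form the gap junctions between astrocytes. Gja1, on the plus strand of chromosome 10 at 56377330 to 56402513, had 172, 232 and 207 CPM in the WT replicates and 187, 209 and 234 CPM in the GFAP-IL6 replicates. Gjb6, on the minus strand of chromosome 14 at 57123303 to 57133611, had 54.5, 73.2 and 73.4 CPM in WT and 55.1, 75.8 and 74.1 CPM in GFAP-IL6. The groups overlapped for both connexins, and replicate 1 was the lowest of its group each time. The log2 fold change was 0.04 ± 0.11 (SE) for Gja1, with a 95% interval from -0.21 to 0.29 (edgeR adjusted p = 0.871). For Gjb6 it was 0.02 ± 0.14 (SE), with an interval from -0.28 to 0.31 (edgeR adjusted p = 0.952). The ratio of Gja1 to Gjb6 in TPM averaged 2.07 in WT (SD 0.132, n = 3) and 2.10 in GFAP-IL6 (SD 0.217, n = 3, exact two-sided permutation p = 1, adjusted p = 1). The 10 other gap junction genes gave no call in either direction, with a median log2 fold change of -0.06. Those with the smallest p were the neuronal connexin Gjd2, at 7.59 ± 0.248 CPM in WT and 5.45 ± 0.314 CPM in GFAP-IL6 (SD, n = 3, edgeR adjusted p = 0.123), and Gjb2, with a log2 fold change of -0.55 (edgeR adjusted p = 0.241).

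Aldh1l1, Aldoc and S100b are used as markers of astrocytes. Aldh1l1 encodes a folate enzyme of the cytosol and lies on the plus strand of chromosome 6 at 90486427 to 90600203. It had 74.5, 75.8 and 88.8 CPM in the WT replicates and 62.3, 72.0 and 72.3 CPM in the GFAP-IL6 replicates. Each GFAP-IL6 library was below each WT library, by a narrow gap between GFAP-IL6 replicate 3 and WT replicate 1, and on the TPM scale the groups overlapped. The log2 fold change was -0.21 ± 0.10 (SE), with a 95% interval from -0.42 to -0.0051 and an unadjusted p of 0.0454 (edgeR adjusted p = 0.235). Without single libraries the estimate was between -0.26 and -0.13, nearest to 0 without WT replicate 3. Exons of Gm15756 on the opposite strand cover 11.0% of the Aldh1l1 exon bases and Gm45901 on the same strand 2.3%, so part of its counts may belong to these genes.

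Aldoc encodes the brain form of the glycolytic enzyme aldolase and lies on the plus strand of chromosome 11 at 78322968 to 78327781. It had 816, 844 and 967 CPM in the WT replicates and 771, 854 and 920 CPM in the GFAP-IL6 replicates. The ranges overlapped over most of their length, and the log2 fold change was -0.05 ± 0.09 (SE, 95% interval -0.25 to 0.16, edgeR adjusted p = 0.809). S100b encodes a calcium-binding protein that astrocytes also secrete, and lies on the plus strand of chromosome 10 at 76253853 to 76261159. It had 99.6, 132 and 125 CPM in the WT replicates and 91.7, 111 and 108 CPM in the GFAP-IL6 replicates. WT replicate 1 lay inside the GFAP-IL6 range and the other WT libraries above it. The log2 fold change was -0.20 ± 0.11 (SE), with a 95% interval from -0.45 to 0.04 (edgeR adjusted p = 0.331). The S100b estimate was -0.31 without WT replicate 1 (edgeR adjusted p = 0.068), and -0.12 without WT replicate 2 or without GFAP-IL6 replicate 1.

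The size of change that these libraries could show was read from the intervals. All 10 intervals lay within a change of 1 on the log2 scale in either direction, the fold change the study required of a differentially expressed gene, and 8 of 10 included 0. Standard errors of the 10 genes were between 0.0888 and 0.136 on the log2 scale. Among the 3459 genes with mean levels in the range of the 10, from 67.7 to 3828 CPM, 40 genes were called, or 1.16%. The smallest called change among them was a log2 fold change of -0.34, for Nrn1. No smaller change was called at these levels with 3 mice per group. This value is not a limit of detection, because some larger estimates at these levels were not called. Among them were Aqp4 at 0.42 (edgeR adjusted p = 0.106) and Atp1b2 at 0.37 (edgeR adjusted p = 0.0680).

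**Figure D3:**
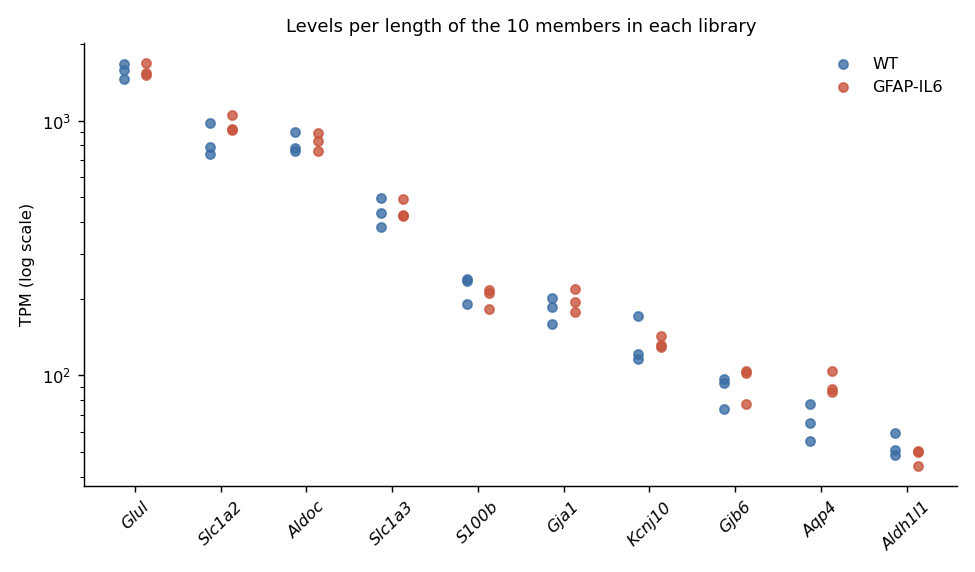
Level of the 10 genes in TPM (log axis) in each library, ordered by the mean over all 6 libraries. Glul lies highest, with a mean of 1578 TPM, and Aldh1l1 lowest, with 50.5 TPM. For each gene the groups lie close together beside this distance, while the ranges of several neighbouring genes overlap.

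Levels of different genes can be compared only per length, so the 10 genes were ordered by TPM over all 6 libraries. Glul stood highest at 1578 ± 89.9 TPM, followed by Slc1a2 at 902 ± 116, Aldoc at 824 ± 64.5 and Slc1a3 at 443 ± 44.6 TPM (SD, n = 6 each). S100b, Gja1 and Kcnj10 followed at 213 ± 22.7, 189 ± 20.5 and 135 ± 19.7 TPM. Gjb6 at 91.4 ± 12.8, Aqp4 at 79.4 ± 17.6 and Aldh1l1 at 50.5 ± 4.91 TPM came last. Mean levels thus spanned 31.2-fold. The order of neighbours did not exceed their spread for Slc1a2 and Aldoc, S100b and Gja1, Gja1 and Kcnj10, Gjb6 and Aqp4, or Aqp4 and Aldh1l1, whose ranges over the libraries overlapped. Aqp4 averaged 65.8 TPM (SD 10.9) in the 3 WT libraries and 93.0 TPM (SD 9.71) in the 3 GFAP-IL6 libraries. On the TPM scale the median difference over all genes was 0.07 on the log2 scale, and 4 genes with estimates just below 0 in CPM, Slc1a3, Glul, Kcnj10 and Aldoc, had differences just above 0.

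The 10 genes also varied together between mice of a group. WT replicate 1 was the lowest WT library for 10 of 10 genes, while over all genes it was the lowest for 37.4%. GFAP-IL6 replicate 1 was the lowest of its group for 9 of 10 genes, beside 30.6% of all genes. WT replicate 3 and GFAP-IL6 replicate 3 were the highest of their groups for 7 and 8 of the genes, beside 24.4% and 36.4% of all genes. With RLE, upper quartile or no scaling beyond the library total, WT replicate 1 was the lowest for between 8 and 10 genes. Under the same scalings GFAP-IL6 replicate 1 was the lowest of its group for 9, 8 and 7 genes. Each mouse gives 1 library, so these genes share its dissection, RNA and depth.

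**Figure D4:**
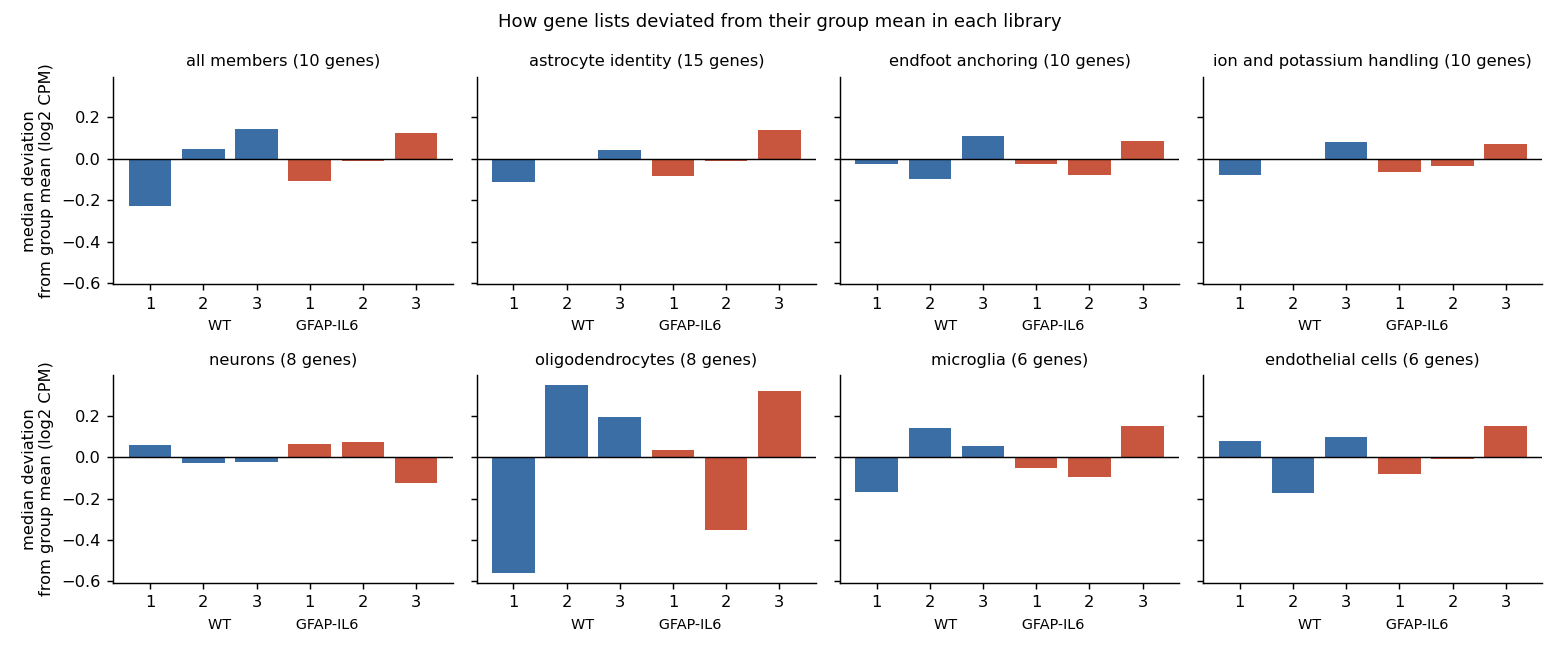
Median deviation of gene lists from their group mean in each library (log2 CPM), for the 10 genes, 3 other astrocyte lists and the markers of 4 other cell types. The 10 genes were lowest in WT replicate 1, at -0.23, where the oligodendrocyte markers lay at -0.56.

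The median deviation of the 10 genes from their group mean was -0.23, 0.05 and 0.15 in WT replicates 1, 2 and 3, on the log2 scale. In the GFAP-IL6 replicates it was -0.11, -0.01 and 0.12. The median of a list of 15 other astrocyte genes, among them Sox9 and Ndrg2, followed the same order of libraries. Its range was smaller in WT, from -0.11 to 0.04, and similar in GFAP-IL6, from -0.09 to 0.14. The ion and potassium list kept this order, but the endfoot, glutamate and gap junction lists did not. In the WT replicates the endfoot list lay at -0.03, -0.10 and 0.11, and the glutamate list at 0.03, 0.02 and -0.03. In WT replicate 1, markers of oligodendrocyte precursors and microglia lay at -0.19 and -0.17, and those of neurons and endothelial cells at 0.06 and 0.08. Markers of oligodendrocytes deviated more, at -0.56, 0.35 and 0.20 in the WT replicates and 0.03, -0.35 and 0.32 in the GFAP-IL6 replicates. The part of tissue composition in the spread between mice was not tested. The highest level over the lowest within a group was between 1.18 and 1.51 in WT and between 1.10 and 1.37 in GFAP-IL6, and it was wider in WT for 8 of the 10 genes, beside 60.1% of all genes.

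The 15 other astrocyte genes gave no call in either direction and a median log2 fold change of -0.06. The smallest p belonged to Pla2g7, which encodes a lipoprotein-associated phospholipase, at 155 ± 26.7 CPM in WT and 116 ± 14.1 CPM in GFAP-IL6 (SD, n = 3, edgeR adjusted p = 0.103), and to Gldc, a glycine cleavage enzyme, with a log2 fold change of -0.36 (edgeR adjusted p = 0.134). Each of the 10 genes was then expressed relative to the mean of these 15 within its library. Aqp4 was 0.49 higher in GFAP-IL6 on the log2 scale, and its SD was 0.24 within WT and 0.06 within GFAP-IL6. Slc1a2 was 0.20 higher, and for both genes each GFAP-IL6 library lay above each WT library on this measure. Aldh1l1 was -0.16 from WT with overlapping groups, and S100b -0.14, while the other 6 genes lay between -0.02 and 0.10. This measure was chosen after the values were seen and was not tested.

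**Figure D5:**
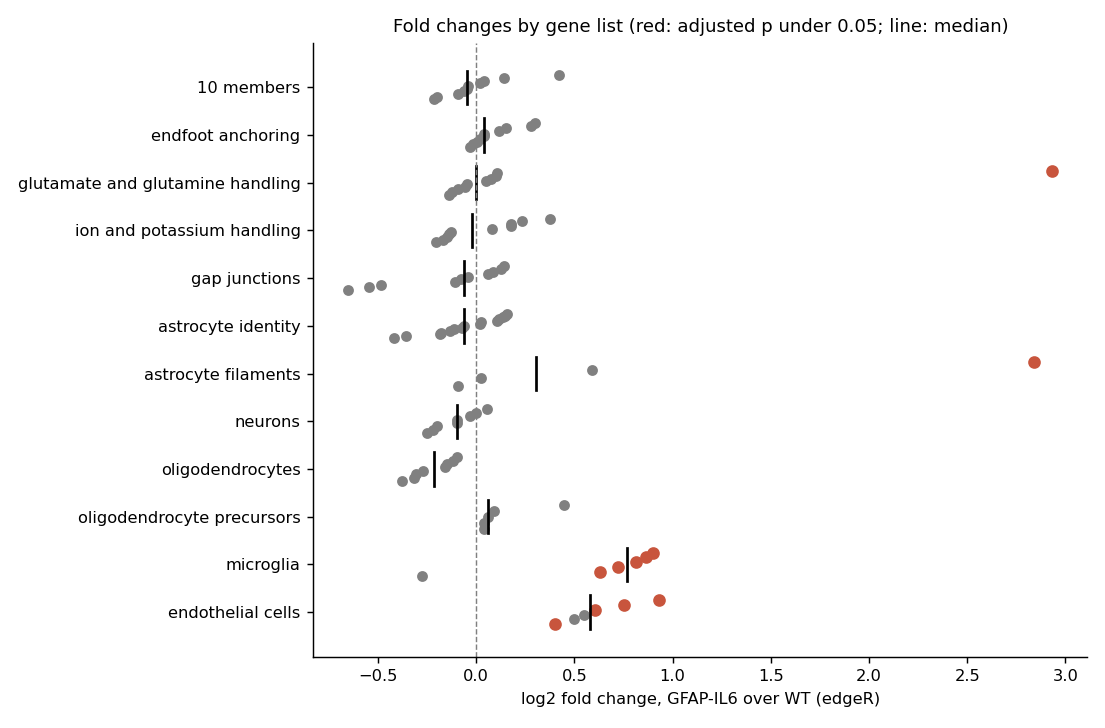
Log2 fold change of GFAP-IL6 over WT for the 10 genes, for other gene lists of astrocyte function and for markers of other cell types. Each point is a gene (red, edgeR adjusted p under 0.05) and the black line is the median of its list. The 10 genes, at a median of -0.04, lie near 0, while microglial and endothelial markers have medians of 0.77 and 0.58.

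Markers of other cells in the cortex moved beside them. Of 6 microglial markers, 5 rose and none fell, with a median log2 fold change of 0.77, and their summed level was between 324 and 400 CPM in WT and between 560 and 638 CPM in GFAP-IL6. Csf1r, the receptor that maintains microglia, rose by 0.87 on the log2 scale (edgeR adjusted p = 0.000149). The marker that did not rise was P2ry12, a microglial purinergic receptor, at 46.3 ± 9.75 CPM in WT and 38.4 ± 4.64 CPM in GFAP-IL6 (SD, n = 3, edgeR adjusted p = 0.291). Of 6 endothelial markers, 4 rose and none fell, with a median of 0.58 and a summed level between 154 and 174 CPM in WT and between 242 and 271 CPM in GFAP-IL6. Flt1, a VEGF receptor, rose by 0.75 (edgeR adjusted p = 0.000925), and Cldn5, of the tight junctions, by 0.93 (edgeR adjusted p = 0.00177). The filament list held 1 call among 4 genes, Gfap. No marker of neurons (8), oligodendrocytes (8) or oligodendrocyte precursors (5) was called, with medians of -0.10, -0.21 and 0.06. Summed neuronal markers were between 7833 and 8210 CPM in WT and between 6717 and 7751 CPM in GFAP-IL6, and Stmn2 and Gad1 had the smallest p (log2 fold changes of -0.25 and -0.22, edgeR adjusted p = 0.154 and 0.180). Summed oligodendrocyte markers overlapped, at 3367 to 6241 CPM and 3401 to 5316 CPM, with the smallest p for Mog and Cnp (edgeR adjusted p = 0.349 and 0.442). The smallest p among the precursor markers belonged to Cspg4 and Pdgfra (edgeR adjusted p = 0.0651 and 0.621).

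Markers of tissue next to the frontal cortex differed between single libraries. Of 6 markers of choroid plexus and ependyma, 4 were tested and none was called, and their summed level was between 4.27 and 595 CPM in WT and between 10.4 and 59.8 CPM in GFAP-IL6. Ttr, which defines the choroid plexus, had 15, 187 and 8766 counts in the WT replicates and 104, 358 and 15 counts in the GFAP-IL6 replicates, so WT replicate 3, the highest WT library for 7 of the 10 astrocyte genes, held the most. Kl, of the same list, had 15, 51 and 491 counts in the WT replicates and 18, 40 and 15 counts in the GFAP-IL6 replicates, so its log2 fold change of -2.15 (edgeR adjusted p = 0.220) rests on WT replicate 3. None of 6 striatal markers was called, with summed levels from 212 to 380 CPM in WT and from 223 to 273 CPM in GFAP-IL6, and Ppp1r1b and Pde10a had the smallest p (edgeR adjusted p = 0.107 and 0.209). None of 6 markers of meningeal fibroblasts was called, with Lum and Dcn first by p (edgeR adjusted p = 0.359 and 0.564). The part of these tissues in the levels of the 10 genes was not tested.

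Promoter windows were read for 9 of the 10 genes from RefSeq on GRCm38.p6, from 250 bases before to 50 bases after each start. STAT3, the factor activated by IL6, binds elements of the form TTCNNNGAA, and these letters, which read the same on both strands, occurred in 2726 of 32851 windows, or 8.3%. They occurred in 2 of the 10 windows of the 9 genes, in Slc1a3 and Aldoc, and in a window of Gfap. The stretches that hold them are shown, 5′ to 3′ on the strand of the gene, because Gfap rose in these libraries while Slc1a3 and Aldoc were not called. Capitals mark the match.
Slc1a3: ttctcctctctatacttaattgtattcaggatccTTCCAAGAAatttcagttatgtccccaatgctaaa
Aldoc: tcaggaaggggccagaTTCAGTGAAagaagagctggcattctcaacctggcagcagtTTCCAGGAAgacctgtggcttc
Gfap: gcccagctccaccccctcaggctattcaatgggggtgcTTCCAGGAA
The Slc1a3 stretch is chr15:8710869-8710937 on the minus strand, and its match begins 96 bases before the start. The Aldoc stretch is chr11:78324058-78324136 on the plus strand, before the start of a shorter transcript, with matches that begin 124 and 83 bases before it, and 75 of its 79 bases lie in an exon of another Aldoc transcript. The Gfap stretch is chr11:102897194-102897240 on the minus strand, with a match that begins 2 bases before the start. Of the 47 bases of the Gfap stretch, 7 lie in an untranslated part of a Gfap exon. The palindromic NFI element, also searched, occurred in 12 of all windows, or 0.0365%, and in none of the 9 genes. A match of letters is no evidence that a factor binds there.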

How the data were processed

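TruSeq libraries from the frontal cortex of 3 WT and 3 GFAP-IL6 mice were analysed, with groups and replicate numbers taken from the sample titles. The authors deposited whole-number counts per gene with no normalization, made by aligning reads with STAR 2.4 and assigning them to GENCODE vM6 genes with featureCounts. The study's methods give mm10 as the mouse build, while the submitters' notes list hg19. Whether the strand was used is not given in the sources used here. The table also gave a length per gene, which was used for TPM. All per-sample columns were used.

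The quasi-likelihood F-test of edgeR 4.0.16 (R 4.3.3) was applied to the counts after TMM scaling and filterByExpr, and p was adjusted by Benjamini-Hochberg over the 15341 genes left. Group was the only term. The authors used DESeq2, and DESeq2 1.42.0 and limma-voom (limma 3.58.1) were run as alternatives, with other scalings, filters, thinning to the smallest total, a replicate block and each library left out. Standard errors come from the F statistic. The fits were tested on simulated data with changes larger than any estimate of the 10 genes. Changes as small as theirs were not simulated. Ratios were compared by exact permutation tests. Positions and exon overlaps are from GENCODE M21, in which 32593 of 33000 identifiers matched.

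The 10 genes, the other lists and the tests were chosen with earlier results of these data known. Named are the 10 genes, Il6 and Gfap, in each list of astrocyte function the called genes (up to 4) or else the 2 with the smallest p, and up to 2 markers per cell type, of which 1 is not reported here. Sox9, Ndrg2, Nrn1 and P2ry12 are named outside this rule and were chosen after their values were seen. Ttr falls inside the rule, with the smallest p of its list. Depth was between 7559524 and 16877001 counts, and at the 10 genes it gave at least 545 counts per library. Reads carried no molecular identifiers. Each library is taken as 1 mouse, and p-values measure the spread between these libraries. The promoter window of Aqp4 was not used here.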

Additional observations from a re-analysis of the deposited data

How the results depend on the processing

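Over 15 other fits, 137 of the 150 fold changes of the 10 genes kept their direction and their side of the threshold, 4 moved past it, all for Aqp4, and 9 turned sign, each in a fit without 1 library. Aqp4 was the only one of the 10 genes called (1 in place of 0) with no low-count filter (log2 fold change 0.42, adjusted p = 0.00494, where 1154 of 22621 genes were called), with DESeq2 (0.42, adjusted p = 0.0389) and without WT replicate 2 (0.58, adjusted p = 0.00273). Its estimate was between 0.30 and 0.58 without single libraries, and it was not called under RLE, upper quartile or total scaling, a mean CPM of at least 1, limma-voom or thinned counts (smallest adjusted p from 0.0896 to 0.103). Without single libraries, between 0 and 1 of the 10 genes and between 187 and 1061 of all genes were called, the median of the 10 was between -0.12 and 0.05, and the sign turned for Gja1 (-0.064 to 0.14), Gjb6 (-0.106 to 0.158), Slc1a3 (-0.147 to 0.056), Kcnj10 (-0.209 to 0.102), Aldoc (-0.106 to 0.0297) and the log2 ratio of Gja1 to Gjb6 (-0.0479 to 0.101). Relative to the 15 other astrocyte genes, chosen after seeing the data, Slc1a3 was at 0.0132 and Aldoc at 0.0036. On the TPM scale, also chosen after seeing the data, Slc1a3 was at 0.0347, Glul at 0.0094, Kcnj10 at 0.00065 and Aldoc at 0.0251. The cause of these shifts was not tested, and none of the genes that turned was called.

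Groups share the replicate numbers 1, 2 and 3. Deviations from the group mean correlated at 0.0996, 0.0147 and 0.0211 across 15341 genes between libraries numbered 1, 2 and 3. Of 6 libraries, 4 correlated best with their own number. These values do not settle whether the numbers pair mice, and the main fit did not take them as pairs. With the replicate block, 750 genes were called, and 1 of the 10, Aqp4 (log2 fold change 0.44, edgeR adjusted p = 0.0466). With 3 mice per group, changes of the 10 genes smaller than their 95% intervals remain undetermined.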
